A study of Mus musculus with 2 samples.

Results

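The genes described here make and clear leukotrienes and prostaglandins, the oxygenated signalling lipids that cells form from arachidonic acid. They are Pla2g4a, Alox5, Alox5ap, Lta4h, Cyp4f18, Ltc4s, Ptgs1, Ptgs2, Hpgds and Ptgds. These 10 genes were taken by symbol out of the 31055 features of the deposited count tables, and each symbol matched 1 feature. All 10 had at least 1 UMI (unique molecular identifier, the tag that marks a captured RNA molecule) in the kept cells of both libraries.

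Cytosolic phospholipase A2, encoded by Pla2g4a, frees arachidonic acid from membranes. 5-lipoxygenase (Alox5), helped by its partner protein FLAP (Alox5ap), turns it into leukotriene A4, from which Lta4h makes the neutrophil attractant leukotriene B4 and Ltc4s makes the cysteinyl leukotriene C4, while Cyp4f18 breaks leukotriene B4 down. The cyclooxygenases Ptgs1 (constitutive in many cells) and Ptgs2 (inducible) open the prostaglandin branch, and Hpgds and Ptgds are the haematopoietic and the lipocalin-type prostaglandin D synthases. In brain tissue, Hpgds is known from microglia and Ptgds from oligodendrocytes and the meninges.

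The cells came from medulloblastomas of Math1-Cre;SmoM2fl/fl mice, in which the promoter of the granule neuron gene Math1 drives Cre, and Cre turns on SmoM2, a constitutively active Smoothened that keeps Hedgehog signalling on. 1 library was made after standard proton irradiation and 1 after FLASH proton irradiation, which gives the dose at an ultra-high rate, so both groups carried the same alleles and both were irradiated. The sample labels give 5 Gy and the series design gives 10 Gy for both. The sources used here do not give the age or strain of the mice, how many went into each library, or how long after irradiation they were sampled, and no unirradiated library was analysed here. With 1 library per group there was no test of FLASH against standard, and every difference between the libraries stands without a replicate check.

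After filtering, 7888 standard cells (median depth 5454 UMIs) and 9506 FLASH cells (median depth 5125.5 UMIs) remained. Only 19 barcode sequences occurred among the kept cells of both. Cells were grouped by clustering that did not use the 10 genes and were named from marker lists, with the ending -like because no label names a cell type. Macrophage-like cells numbered 156 in the standard and 163 in the FLASH library, microglia-like cells 109 and 89, and monocyte-like cells 22 and 49, and these 3 groups together are called myeloid (287 and 301 cells). Neutrophil-like cells numbered 14 and 21, myelinating oligodendrocyte-like cells 53 and 51, oligodendrocyte precursor-like cells 57 and 99, and endothelial-like cells 29 and 53. Tumour-lineage cells, made up of clusters resembling granule neuron progenitors and differentiating granule neurons, numbered 5957 and 7310. All 10 microglial, monocyte, endothelial and myelin markers of their lists were detected in the class they name in both libraries, and 10 of 12 (standard) and 12 of 12 (FLASH) macrophage markers were, with Cd163 and Lyve1 at 0 in the standard library. The clusters had been named by these same lists, so this is no separate check of the names. Mast cells are a classical source of leukotriene C4 and prostaglandin D2, and no cluster was named mast cell-like. In the myeloid cells 8 of 10 mast cell markers, Cpa3, Mcpt4, Fcer1a and Ms4a2 among them, had no UMI in either library. These cells are clusters named from other lists, so few mast cells would be expected among them. The part of mast cells in the Ltc4s and Hpgds UMIs was not tested. Levels are given as CPM, the UMIs of a gene per 1000000 UMIs of all genes summed over the cells of a class. A difference between the libraries is the log2 of the FLASH level over the standard level, called the FLASH/standard log2 ratio. A gene was called higher or lower where it had at least 20 UMIs over both libraries in a class and differed at least 1.5-fold. All intervals are at 95% and cover counting error only. CPM values were not compared between genes. Alox5ap, Ltc4s and Cyp4f18 overlap genes on the opposite strand (Gm19719, Gm26542 and Zfp961), and the strand setting of the counting is not stated, so a part of their UMIs could belong to these partners.

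Most of the 10 genes were concentrated in a single compartment. Myeloid cells were 3.64% of the kept standard cells and 3.17% of the kept FLASH cells, and they held 98.1% and 96.1% of all Ptgs1 UMIs, 97.4% and 91.4% of Ltc4s, 85.3% and 84.9% of Hpgds, 82.7% and 90.7% of Cyp4f18, and 70.8% and 77.8% of Alox5ap. Neutrophil-like cells held 55.4% and 55.2% of Ptgs2. Oligodendrocyte lineage cells held 94.2% and 70.2% of Ptgds. Tumour-lineage cells held 91.2% and 90.8% of Lta4h, but they were also 75.5% and 76.9% of the kept cells. Lta4h was at 48.5 and 47.7 CPM over all kept cells, close to its 51.0 and 49.8 CPM in tumour-lineage cells. The 2 libraries placed each of these genes in the same main class.

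**Figure D1:**
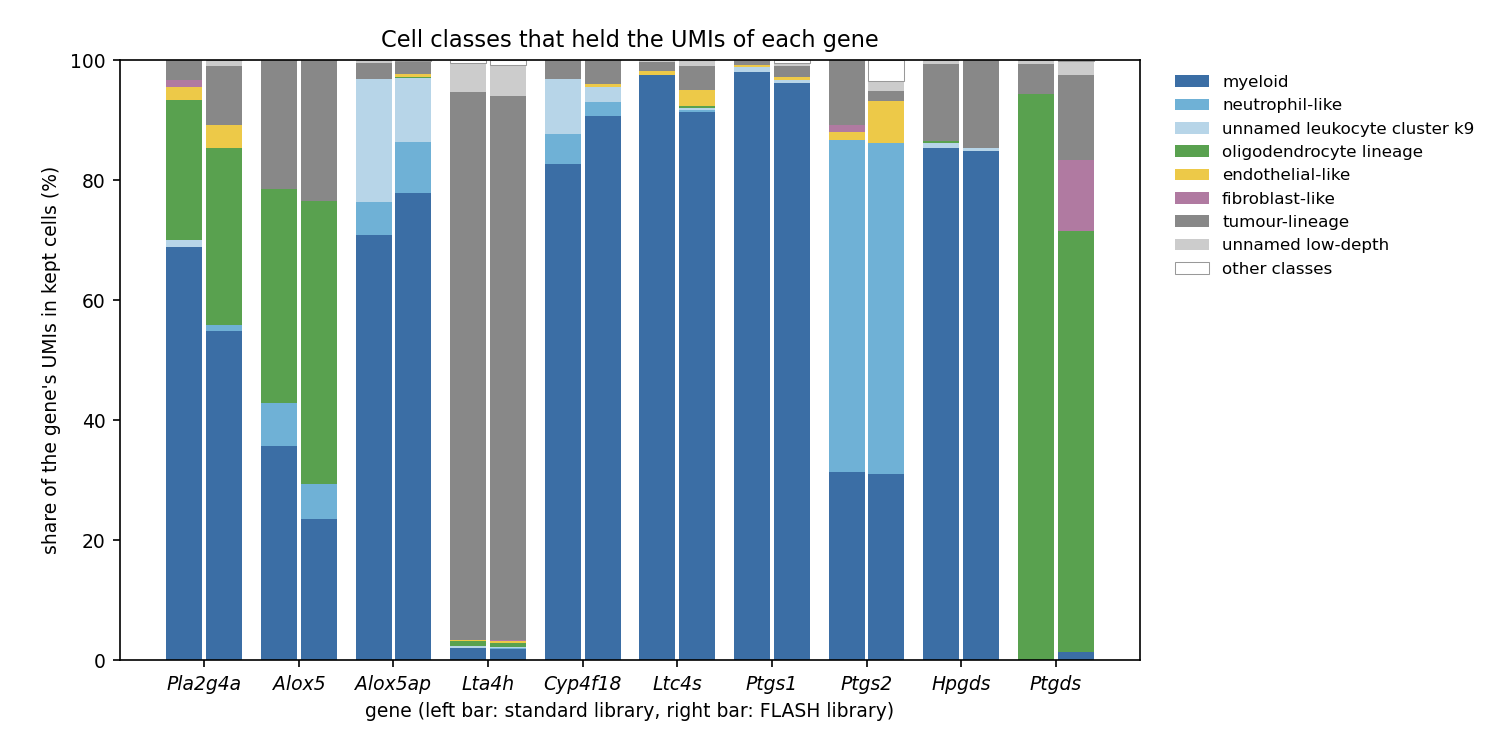
Share of each gene's UMIs (y axis, percent of the gene's UMIs in kept cells) held by each cell class, with the standard library as the left bar and the FLASH library as the right bar of each gene. Myeloid cells hold 98.1% and 96.1% of Ptgs1, 97.4% and 91.4% of Ltc4s and 85.3% and 84.9% of Hpgds, Ptgds is mostly from the oligodendrocyte lineage, Lta4h mostly from tumour-lineage cells and Ptgs2 mostly from neutrophil-like cells.

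**Figure D2:**
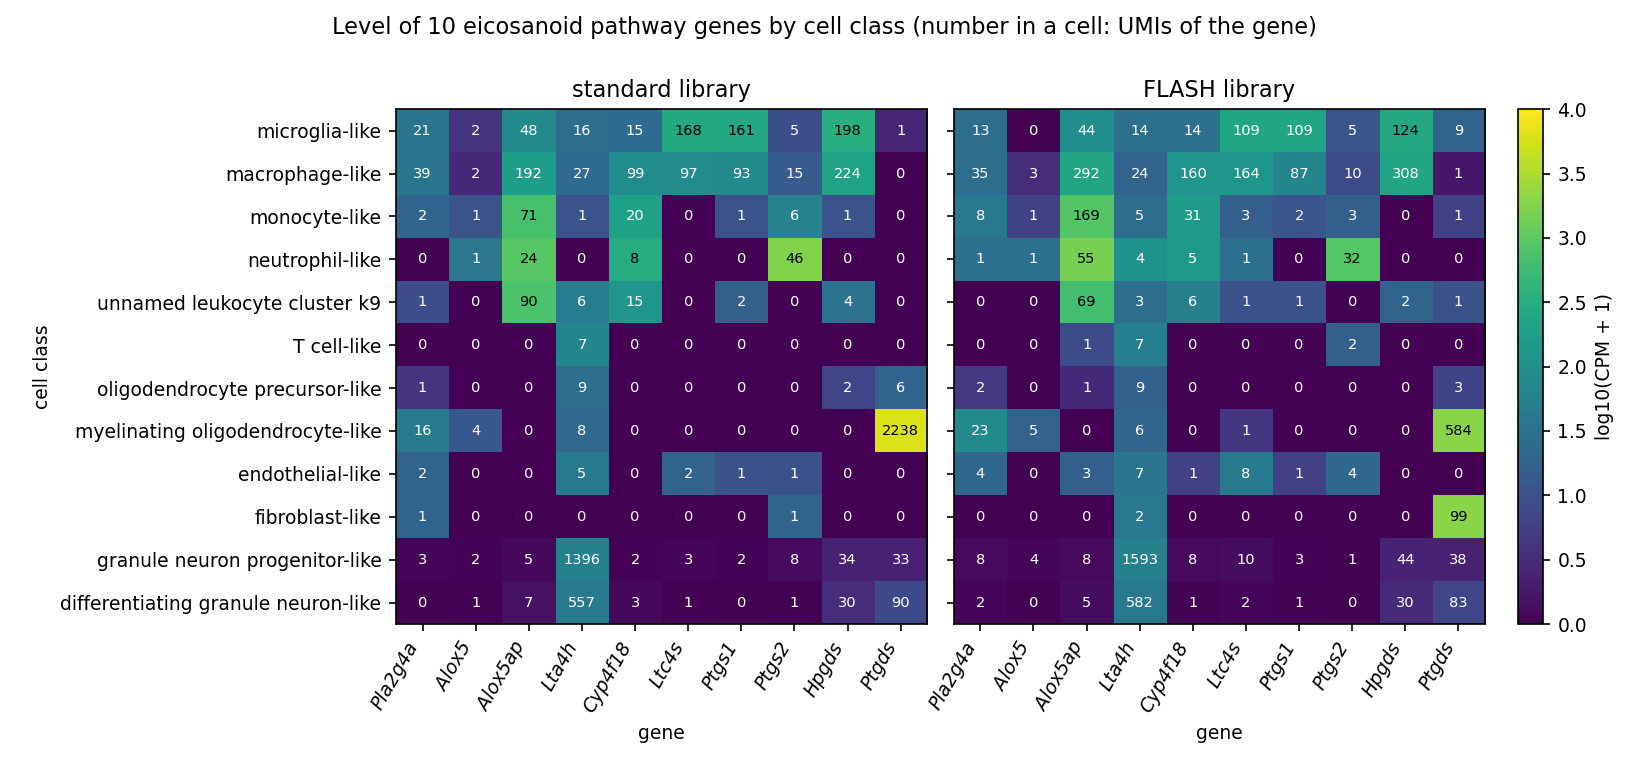
Level of the 10 genes (columns) in 12 cell classes (rows) for the standard and the FLASH library, as log10(CPM + 1) in colour, with the number of UMIs of the gene written in each field. Among the rows of the Ptgds column, myelinating oligodendrocyte-like cells are the highest in both panels, with 2238 and 584 UMIs.

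Release of arachidonic acid comes first in the pathway. Pla2g4a (chromosome 1, 149829618 to 149961290, minus strand, mm10) was found in myeloid and in myelinating oligodendrocyte-like cells. Its level in myeloid cells was 33.3 CPM in the standard library (62 UMIs, exact Poisson 95% interval 25.5 to 42.7) and 28.0 CPM in the FLASH library (56 UMIs, 21.1 to 36.3). In myelinating oligodendrocyte-like cells it was 44.5 CPM (16 UMIs, 25.4 to 72.2) and 77.5 CPM (23 UMIs, 49.1 to 116), while precursor-like cells held 1 and 2 UMIs. Tumour-lineage cells held 3 and 10 UMIs, or 0.0783 and 0.229 CPM. The FLASH/standard log2 ratio was -0.25 (exact binomial interval -0.80 to 0.29) in myeloid cells. It was 0.79 (-0.18 to 1.82) in myelinating cells, where both intervals of the level overlap and the direction turned to -0.22 without the 5 cells richest in the gene in each library, and to -0.44 at equal depth.

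5-lipoxygenase RNA was detected at a very low level. Alox5 (chromosome 6, 116410077 to 116461178, minus strand) had 14 UMIs in the whole standard library and 17 in the whole FLASH library. Myeloid cells held 5 and 4 of them, at 2.69 CPM (0.872 to 6.27) and 1.999 CPM (0.545 to 5.12). Oligodendrocyte lineage cells held as many or more, 5 and 8 UMIs, at 5.94 CPM (1.93 to 13.9) and 8.20 CPM (3.54 to 16.2). In that lineage 4 and 5 UMIs lay in myelinating cells (11.1 and 16.8 CPM), none lay in precursor-like cells, and the cluster between precursor and myelinating cells, marked by Enpp6, held 1 and 3. Neutrophils are a known site of 5-lipoxygenase in other settings. Neutrophil-like cells held 1 UMI in each library, at 37.8 and 27.9 CPM, from only 14 and 21 cells. Their log2 ratios over myeloid cells were 4.26 (-1.75 to 6.97) and 4.22 (-1.82 to 7.14). Both intervals are wide and include 0, so their level is not placed above or below the myeloid level. No ratio between the libraries is given at these counts.

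RNA of the partner protein was far more widely detected in the same cells. Alox5ap (chromosome 5, 149264767 to 149288153, plus strand) had 311 UMIs in standard and 505 in FLASH myeloid cells, or 167 CPM (149 to 187) and 252 CPM (231 to 275). Within these cells it was lowest in microglia-like cells, at 76.8 CPM (56.6 to 102) and 91.5 CPM (66.5 to 123). Macrophage-like cells were at 169 CPM (146 to 195) and 221 CPM (196 to 247), and monocyte-like cells were at 692 CPM (540 to 873) and 860 CPM (735 to 999.6). The order microglia, macrophage, monocyte held in both libraries, with log2 ratios of monocyte-like over macrophage-like cells of 2.04 (1.62 to 2.43) and 1.96 (1.68 to 2.24) and of microglia-like over macrophage-like cells of -1.13 (-1.63 to -0.68) and -1.25 (-1.76 to -0.81). The macrophage-like clusters were unlike each other. The Spp1 and Gpnmb cluster was at 238 and 289 CPM and the Pf4 and Mrc1 cluster at 227 and 341 CPM, while the Ms4a7 and Apoe cluster, at 74.5 and 82.7 CPM (30 and 39 UMIs), was close to the microglia-like level. Neutrophil-like cells were at 907 CPM (24 UMIs) and 1536 CPM (55 UMIs), and an unnamed leukocyte cluster led by MHC class II genes (18 and 15 cells) was at 724 and 615 CPM. T cell-like cells held 0 and 1 UMI and myelinating oligodendrocyte-like cells held none in either library.

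A UMI of Alox5ap was seen in 44.3% of standard and 57.1% of FLASH myeloid cells, against 0.185% and 0.150% of tumour-lineage cells. Median depths were 6031 and 5842 UMIs in myeloid and 6246 and 5676 UMIs in tumour-lineage cells. With every cell thinned to 2000 UMIs, which left out 58 and 53 of the myeloid cells, the shares were 24.9% (exact Clopper-Pearson interval 19.4 to 31.0) and 37.9% (31.8 to 44.3), against 0.0903% and 0.0435% in tumour-lineage cells. In myeloid cells the FLASH/standard log2 ratio was 0.59 (0.39 to 0.80), a 1.51-fold higher level. The mix of myeloid cells differed too, with monocyte-like cells making up 22 of 287 standard and 49 of 301 FLASH cells. Holding the clusters to the same mix in both libraries gave 0.32. Thinning gave 0.90, with monocyte-like cells 22 of 229 standard and 45 of 248 FLASH cells left. Clustering each library by itself gave 0.97, but the myeloid groups were then unlike. The standard library alone had no monocyte-like cluster. Its cluster of 61 cells with monocyte-like as the best list stayed unnamed, outside the myeloid cells. The FLASH library alone had a monocyte-like cluster of 48 cells. Inside macrophage-like cells the ratio was 0.38 (0.11 to 0.65), inside monocyte-like cells 0.31 (-0.09 to 0.73) and inside microglia-like cells 0.25 (-0.37 to 0.87). The 3 ratios point the same way and only that of the macrophage-like cells has an interval above 0.

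Of the enzymes on either side of leukotriene B4, Lta4h (chromosome 10, 93453411 to 93484875, plus strand) was the member found most widely. Tumour-lineage cells were at 51.0 CPM (1953 UMIs, 48.7 to 53.3) in the standard library and 49.8 CPM (2175 UMIs, 47.7 to 51.9) in the FLASH library. Myeloid cells were at 23.6 CPM (44 UMIs, 17.2 to 31.7) and 21.5 CPM (43 UMIs, 15.5 to 28.9), lower than tumour-lineage cells by log2 ratios of -1.09 (-1.57 to -0.68) and -1.20 (-1.68 to -0.78). Oligodendrocyte lineage cells were at 21.4 and 19.5 CPM. Among tumour-lineage cells, differentiating cells were lower than progenitor-like cells, at 41.3 against 56.2 CPM and 40.7 against 54.2 CPM, with log2 ratios of -0.45 (-0.59 to -0.30) and -0.41 (-0.55 to -0.27). The libraries themselves differed little, with a FLASH/standard log2 ratio of -0.03 (-0.12 to 0.06) in tumour-lineage cells, the narrowest interval of any member.

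Cyp4f18 (chromosome 8, 71988482 to 72009626, minus strand), the leukotriene B4 hydroxylase, was, like Alox5ap, lower in microglia-like than in macrophage-like cells. Macrophage-like cells were at 87.3 CPM (99 UMIs, 70.9 to 106) and 121 CPM (160 UMIs, 103 to 141), and microglia-like cells were at 24.0 CPM (15 UMIs) and 29.1 CPM (14 UMIs). Monocyte-like cells were at 195 CPM (20 UMIs, 119 to 301) and 158 CPM (31 UMIs, 107 to 224). Microglia-like cells lay below macrophage-like cells in both libraries, with log2 ratios of -1.82 (-2.75 to -1.07) and -2.01 (-2.96 to -1.26), whereas the step from macrophage-like to monocyte-like cells was clear of 0 in the standard library (1.19, 0.39 to 1.86) and not in the FLASH library (0.40, -0.22 to 0.95). Its other leukocyte levels did not follow Alox5ap in both libraries. The unnamed MHC class II cluster was at 121 and 53.5 CPM (15 and 6 UMIs) and neutrophil-like cells were at 302 and 140 CPM (8 and 5 UMIs), with a log2 ratio of the latter over myeloid cells of 2.15 (0.83 to 3.09) in the standard and 0.58 (-1.19 to 1.69) in the FLASH library. T cell-like and oligodendrocyte lineage cells held no Cyp4f18 UMI in either library, which for the oligodendrocyte lineage allows at most 3.57 and 3.08 CPM. Its FLASH/standard log2 ratio was 0.51 (0.19 to 0.83) in myeloid and 0.47 (0.10 to 0.85) in macrophage-like cells, under the 1.5-fold mark. Among the macrophage-like clusters with at least 20 UMIs the highest ratio was in the cluster led by Pf4 and Mrc1, with 17 and 34 UMIs, 53.5 and 152 CPM and a log2 ratio of 1.49 (0.63 to 2.44). This cluster was picked for its ratio, and the interval does not allow for that choice.

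Ltc4s, Ptgs1 and Hpgds were present in microglia-like and macrophage-like cells and had at most 3 UMIs in the monocyte-like cells of either library, where Alox5ap was high. Neutrophil-like cells held at most 1 UMI of each, but their few UMIs set a wide limit, since a count of 0 there allows up to 113 CPM in the standard and 83.8 CPM in the FLASH library. The RefSeq promoter windows of these 3 genes (250 bases upstream of the RefSeq start, GRCm38.p6) each hold the letters AGGAAGT on the gene's own strand. This is a form of the purine-rich core that myeloid ETS factors such as PU.1 can bind. The letters were picked after the windows had been read and were searched on both strands. The Ptgs1 and Ltc4s sequences are printed to show where it lies, with the match in capitals, at chr2:36230176-36230425 (Ptgs1, plus strand) and chr11:50238617-50238782 (Ltc4s, minus strand).
Ptgs1: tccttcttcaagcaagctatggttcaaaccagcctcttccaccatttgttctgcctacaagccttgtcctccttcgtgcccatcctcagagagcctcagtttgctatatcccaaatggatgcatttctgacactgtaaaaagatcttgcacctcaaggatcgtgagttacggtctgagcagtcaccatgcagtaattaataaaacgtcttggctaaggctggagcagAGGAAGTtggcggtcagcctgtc
Ltc4s: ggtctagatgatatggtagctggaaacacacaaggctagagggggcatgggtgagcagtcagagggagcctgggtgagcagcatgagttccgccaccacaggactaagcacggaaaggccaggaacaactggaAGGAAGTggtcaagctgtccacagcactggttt
The first base of the match lies 23 bases before the RefSeq start in Ptgs1, 48 in Hpgds and 117 in Ltc4s. GENCODE M21, the source of the gene positions given here, has the same start for Ptgs1 and starts the other two further upstream. By its starts the Ltc4s match lies 33 bases before the gene, the 84 bases of that window inside the gene are not printed, and the Hpgds match lies inside the gene, so its window is not shown. A match on either strand was found in 2525 of 32851 windows of this length (7.69%) and in 2377 of 27025 genes with a window (8.80%), and in 4 of the 9 members with a window, the fourth being an alternative start of Pla2g4a on the opposite strand. Because the letters were picked after the windows had been read, the member count cannot be weighed against these shares. A match is a description of the letters, not a binding site.

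Ltc4s (chromosome 11, 50236461 to 50238616, minus strand), the leukotriene C4 synthase, was highest in microglia-like cells, at 269 CPM (168 UMIs, 230 to 313) in the standard and 227 CPM (109 UMIs, 186 to 273) in the FLASH library. Macrophage-like cells were at 85.5 CPM (97 UMIs, 69.4 to 104) and 124 CPM (164 UMIs, 106 to 144). Monocyte-like cells held 0 and 3 UMIs, the former allowing at most 29.2 CPM. Oligodendrocyte lineage cells held 0 and 1, and endothelial-like cells 2 and 8. The microglia-like level was above the macrophage-like level in both libraries, by log2 ratios of 1.65 (1.28 to 2.03) and 0.87 (0.51 to 1.23). The FLASH/standard log2 ratio was 0.53 (0.16 to 0.91) in macrophage-like and -0.24 (-0.61 to 0.11) in microglia-like cells, and -0.05 (-0.29 to 0.20) over all myeloid cells. The intervals of the macrophage-like and microglia-like ratios do not overlap, though no test of that difference was possible.

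Among the macrophage-like clusters, the one led by Spp1 and Gpnmb showed the highest Ltc4s ratio. Its 44 standard cells held 14 UMIs (37.9 CPM, 20.7 to 63.5) and its 65 FLASH cells held 55 UMIs (90.3 CPM, 68.0 to 117), a log2 ratio of 1.22 (0.39 to 2.22). Here too the interval does not allow for picking the cluster by its ratio. The cells of this cluster with a Ltc4s UMI were 10 of 44 and 23 of 65, and the highest single cell held 4 and 9. The Ms4a7 and Apoe cluster went from 132 to 176 CPM (53 and 83 UMIs, log2 ratio 0.41, -0.09 to 0.95), and the Pf4 and Mrc1 cluster had 25 UMIs in each library (78.7 and 112 CPM). At equal depth the macrophage-like ratio of Ltc4s was 0.14, and without the 5 cells richest in the gene in each library it was 0.90.

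Ptgs1 (chromosome 2, 36230426 to 36252272, plus strand), cyclooxygenase 1, had the same order. Microglia-like cells were at 257 CPM (161 UMIs, 219 to 300) and 227 CPM (109 UMIs, 186 to 273), and macrophage-like cells at 82.0 CPM (93 UMIs, 66.2 to 100.5) and 65.7 CPM (87 UMIs, 52.6 to 81.0). The log2 ratios of microglia-like over macrophage-like cells were 1.65 (1.27 to 2.04) and 1.79 (1.37 to 2.21). Monocyte-like cells held 1 and 2 UMIs, neutrophil-like and oligodendrocyte lineage cells held none, and tumour-lineage cells held 2 and 4. Within macrophage-like cells the Pf4 and Mrc1 cluster (138 and 117 CPM) and the Ms4a7 and Apoe cluster (96.9 and 104 CPM) were above the Spp1 and Gpnmb cluster (27.0 and 18.1 CPM). Platelets are another known source of Ptgs1. In microglia-like cells, where the gene was highest, the platelet list summed to 22.4 and 25.0 CPM. Gp1bb, Ppbp, Gp6 and Tubb1 of that list had no UMI in either library, and other genes of the list made up the sum. The platelet list also holds Pf4, which is on the macrophage list too. The part of platelet RNA in these Ptgs1 UMIs was not tested.

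Over all myeloid cells Ptgs1 was at 137 CPM (255 UMIs, 121 to 155) in the standard and 98.9 CPM (198 UMIs, 85.6 to 114) in the FLASH library, a log2 ratio of -0.47 (-0.74 to -0.20). Microglia-like cells were 109 of the 287 standard and 89 of the 301 FLASH myeloid cells. With the clusters held to the same mix the ratio was -0.13, and thinned to equal depth it was -0.96. Within microglia-like cells it was -0.18 (-0.55 to 0.18) and within macrophage-like cells -0.32 (-0.76 to 0.12).

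Hpgds (chromosome 6, 65117293 to 65144908, minus strand), the haematopoietic prostaglandin D synthase, was at 317 CPM (198 UMIs, 274 to 364) and 258 CPM (124 UMIs, 215 to 308) in microglia-like cells, and at 198 CPM (224 UMIs, 172 to 225) and 233 CPM (308 UMIs, 207 to 260) in macrophage-like cells. Microglia-like cells were above macrophage-like cells in the standard library (log2 ratio 0.68, 0.40 to 0.96) and not beyond counting error in the FLASH library (0.15, -0.16 to 0.45). The Ms4a7 and Apoe macrophage cluster was at 291 and 333 CPM, beside 346 and 274 CPM in the deeper microglial cluster. Monocyte-like cells held 1 and 0 UMIs, the latter allowing at most 15.3 CPM. The FLASH/standard log2 ratio was -0.07 (-0.27 to 0.12) in myeloid, 0.24 (-0.02 to 0.49) in macrophage-like and -0.29 (-0.63 to 0.04) in microglia-like cells.

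Hpgds was also seen at a low level across tumour-lineage cells, with 64 UMIs in 63 standard cells and 74 UMIs in 73 FLASH cells (1.67 and 1.69 CPM, 1.06% and 0.999% of the cells). Myeloid cells held 423 Hpgds and 255 Ptgs1 UMIs in the standard library, whereas tumour-lineage cells held 64 and 2, with 432 and 198 against 74 and 4 after FLASH. The part of myeloid RNA in these Hpgds UMIs was not tested. The thinned shares of tumour-lineage cells with a Hpgds UMI were 0.379% and 0.319%.

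In single microglia-like cells UMIs of Ptgs1 and Hpgds met in 49 of 109 standard and 33 of 89 FLASH cells, and with cells thinned to 2000 UMIs in 18 of 77 and 10 of 56, where the product of the shares gives 16.2 and 6.86 cells.

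**Figure D3:**
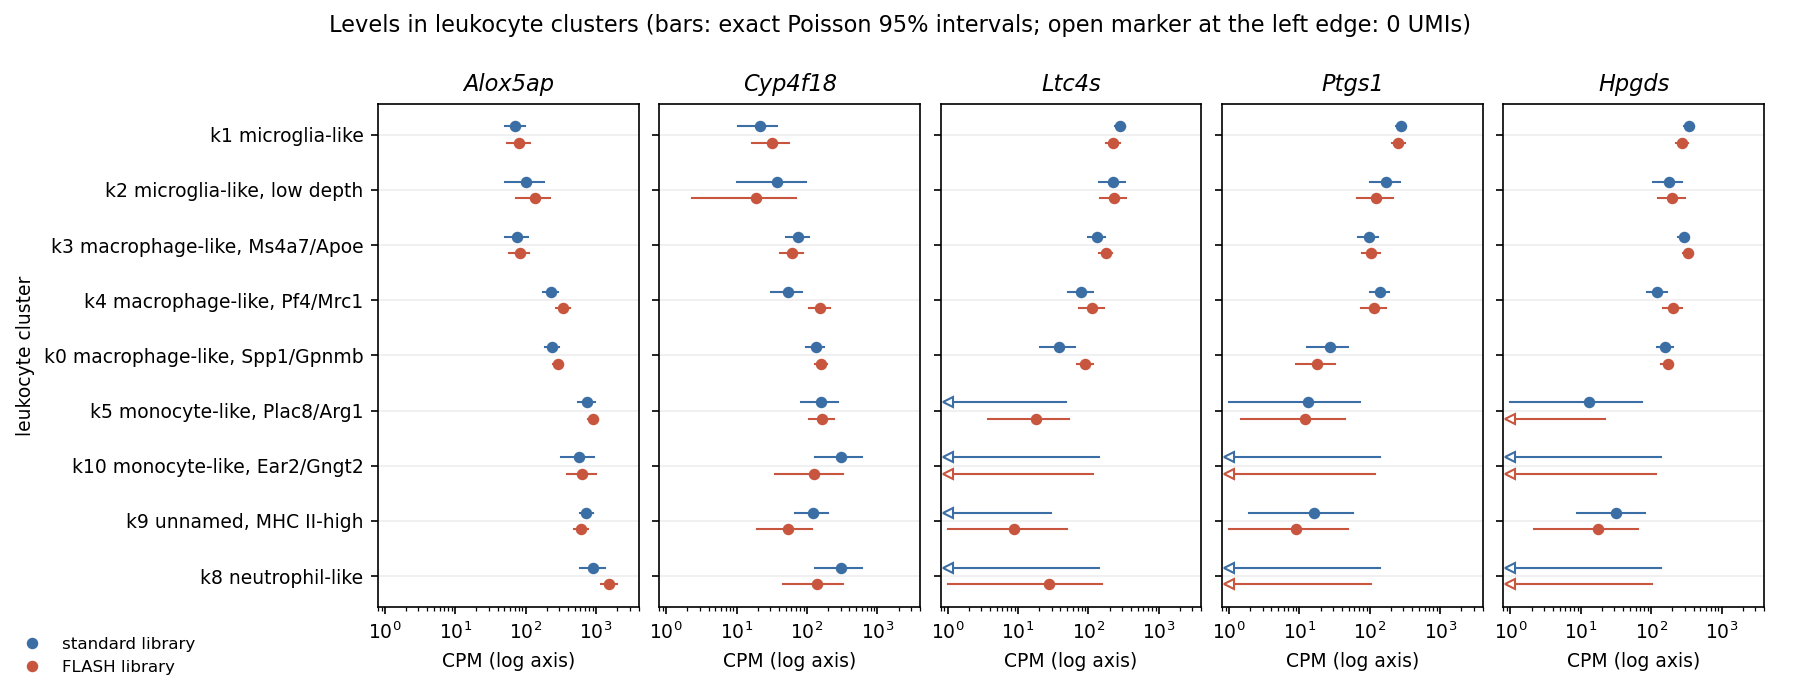
Level in CPM (log x axis) of Alox5ap, Cyp4f18, Ltc4s, Ptgs1 and Hpgds in 9 leukocyte clusters (rows) of the standard (blue) and FLASH (red) library, with exact Poisson 95% intervals as bars and an open marker at the left edge where no UMI was found. Alox5ap is highest in the monocyte-like, neutrophil-like and MHC II-high clusters, where Ltc4s, Ptgs1 and Hpgds each have at most 4 UMIs per cluster and library and wide intervals.

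Ptgs2 (chromosome 1, 150100031 to 150108227, plus strand), the inducible cyclooxygenase 2, was highest in neutrophil-like cells. The 14 standard neutrophil-like cells held 46 UMIs (1738 CPM, 1273 to 2319) and the 21 FLASH cells held 32 (894 CPM, 611 to 1262). A UMI was seen in 10 cells of each library, with 14 UMIs in the highest standard and 11 in the highest FLASH cell and a median of 1 and 0. Myeloid cells were at 13.96 CPM (26 UMIs, 9.12 to 20.5) and 8.99 CPM (18 UMIs, 5.33 to 14.2), so that neutrophil-like cells were above them by log2 ratios of 6.95 (6.24 to 7.71) and 6.62 (5.76 to 7.55). Oligodendrocyte lineage cells held no UMI in either library. Tumour-lineage cells held 9 and 1 UMIs, and 5 of the 9 lay in 1 cell.

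Counts of Ptgs2 outside neutrophil-like cells were small, with 6 and 3 UMIs in monocyte-like, 5 and 5 in microglia-like and 1 and 4 in endothelial-like cells. The FLASH/standard log2 ratio was -0.62 (-1.59 to 0.29) in myeloid cells and -0.79 (-2.12 to 0.44) in macrophage-like cells, both with intervals that include 0. In neutrophil-like cells, which are too few for the comparison used elsewhere, it was -0.95 (-1.66 to -0.28). Of the 10 neutrophil markers 7 were detected in the standard and 10 in the FLASH cells, with Camp, Ngp and Ltf at 0 in the former, and the list summed to 54829 and 103496 CPM. The part of this difference in the Ptgs2 values was not tested.

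Ptgds (chromosome 2, 25466709 to 25470046, minus strand), the lipocalin-type prostaglandin D synthase, was found mainly in myelinating oligodendrocyte-like cells and had the largest difference between the libraries of the members called. These cells were at 6221 CPM (2238 UMIs, 5966 to 6484) in the standard and 1968 CPM (584 UMIs, 1811 to 2134) in the FLASH library, while precursor-like cells held 6 and 3 UMIs (17.6 and 5.48 CPM). Myelinating cells stood above precursor-like cells by log2 ratios of 8.35 (7.34 to 9.91) and 8.27 (6.93 to 10.77). The FLASH/standard log2 ratio was -1.66 (-1.79 to -1.53) in myelinating cells and -2.14 (-2.27 to -2.01) in the whole lineage. The mix of the lineage differed too, with myelinating cells making up 53 of 120 standard and 51 of 161 FLASH cells.

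The Ptgds UMIs came from few cells. The cluster with Mal and Mog among its leading genes had 18 standard and 14 FLASH cells. In the standard library 9 of the 18 had a UMI, with 886, 332, 267, 227, 165, 105, 79, 61 and 1 UMIs, and the other 9 had 0. In the FLASH library 9 of the 14 had a UMI, with 148, 142, 114, 49, 11, 5, 1, 1 and 1, and the other 5 had 0. High-Ptgds cells thus existed in both libraries, and 8 standard cells were above 60 UMIs against 3 FLASH cells. The cluster sums were 2123 and 472 UMIs, or 11475 and 3144 CPM (log2 ratio -1.87, -2.01 to -1.72), and a single cell held 41.7% of the former. The interval covers counting error and not the spread between cells, which is far wider here.

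The other 2 myelinating clusters did not show this difference. The cluster led by Nfasc and Mag had 8 and 9 cells with 101 and 86 Ptgds UMIs (839 and 785 CPM, log2 ratio -0.10, -0.53 to 0.33), of which 87 and 45 came from 1 cell each. The low-depth myelin cluster had 14 and 26 UMIs in 27 and 28 cells (257 and 701 CPM, log2 ratio 1.42, 0.46 to 2.50). In the Enpp6 cluster between precursor and myelinating cells Ptgds had 19 and 8 UMIs (135 and 61.2 CPM, log2 ratio -1.09, -2.54 to 0.12). Shares of myelinating cells with a Ptgds UMI were alike, 35.8% (19 cells) and 35.3% (18 cells), against 1.81% and 1.49% of tumour-lineage cells at median depths of 2504 and 1566 UMIs for the former and 6246 and 5676 for the latter. Thinned to 2000 UMIs they were 10 of 31 (32.3%, 16.7 to 51.4) and 8 of 18 (44.4%, 21.5 to 69.2), and leaving out the 5 richest cells of each library gave a log2 ratio of -1.65. The summed level of the 10 myelin markers was 60453 CPM in the standard and 70405 CPM in the FLASH cells.

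**Figure D4:**
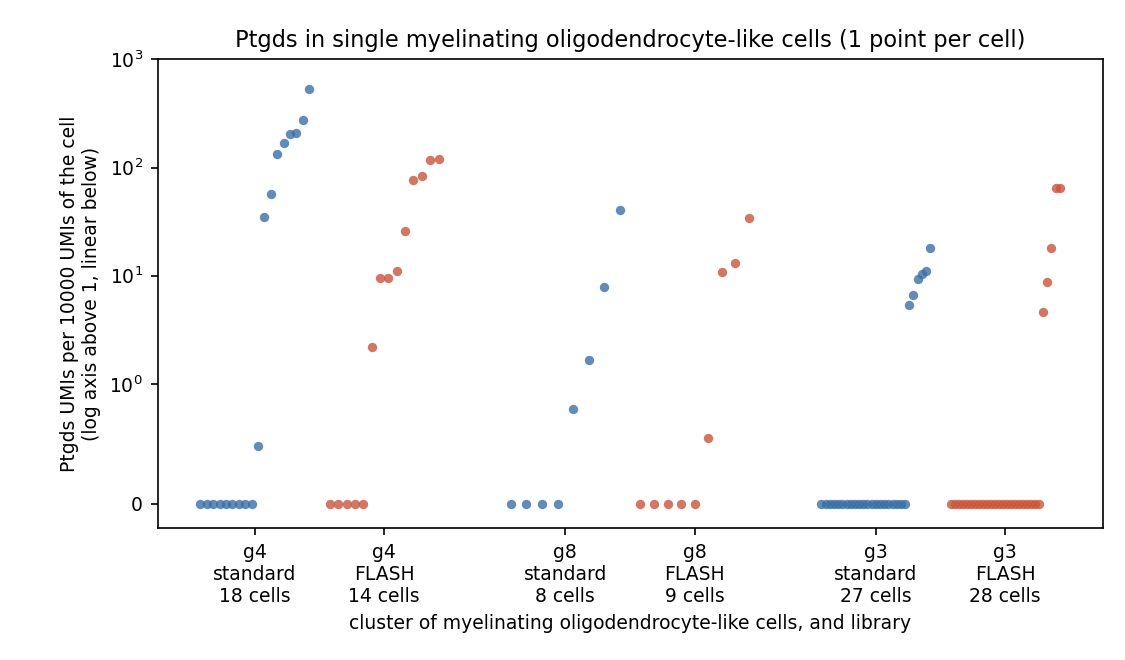
Ptgds UMIs per 10000 UMIs of a cell (y axis, logarithmic above 1 and linear below) for each myelinating oligodendrocyte-like cell, by cluster and library (blue, standard; red, FLASH). In cluster g4, the one with Mal and Mog among its leading genes, the richest standard cell reaches 538 per 10000 and the richest FLASH cell 119, and many cells of every cluster sit at 0.

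Each class outside the oligodendrocyte lineage held fewer Ptgds UMIs than myelinating cells, with 5.12% and 14.3% of all Ptgds UMIs in tumour-lineage cells. Fibroblast-like cells held 0 UMIs in 5 standard cells and 99 UMIs in 7 FLASH cells. The latter is 1911 CPM, beside 1968 CPM in FLASH myelinating cells, but 97 of the 99 lay in a single cell, so no ratio is given. Microglia-like cells held 1 and 9 UMIs, 7 of the 9 in 1 cell. In tumour-lineage cells Ptgds was at 3.21 CPM (123 UMIs in 108 cells) and 2.77 CPM (121 UMIs in 109 cells). There it was higher in differentiating than in progenitor-like cells, at 6.67 against 1.33 CPM and 5.81 against 1.29 CPM, with log2 ratios of 2.31 (1.74 to 2.95) and 2.16 (1.60 to 2.76). The shares of cells with a UMI were 2.78% of differentiating and 1.01% of progenitor-like cells in the standard library and 2.46% and 0.782% in the FLASH library, although the progenitor-like cells were the deeper ones (medians of 7372.5 and 6602 UMIs against 5160 and 4675).

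Endothelial-like cells (29 and 53) gave few UMIs for any member. They had 2 and 8 Ltc4s UMIs (17.8 and 41.4 CPM), 2 and 4 of Pla2g4a, 1 and 4 of Ptgs2, 1 and 1 of Ptgs1, and 5 and 7 of Lta4h (44.5 and 36.2 CPM). Hpgds, Ptgds and Alox5 had none in either library. The 8 Ltc4s UMIs of the FLASH library lay in 5 cells. In the same class 2 of 12 macrophage markers were detected in the standard and 9 of 12 in the FLASH cells (997 and 5207 CPM in sum), among them C1qa and Mrc1 in the FLASH cells alone, and their part in the Ltc4s UMIs was not tested. Ptgis, which makes the vessel-relaxing prostacyclin, had 12 and 9 UMIs in endothelial-like cells (107 and 46.6 CPM) and none in myeloid cells, and Ptges, a prostaglandin E synthase, had 5 and 7.

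The members were then read against all genes. In myeloid cells 8 of the 10 members had enough UMIs, and 1 was called higher (Alox5ap) and 1 lower (Ptgs2), while 5.03% of all 9222 genes measured there were called higher and 7.16% lower. Their median log2 ratio was -0.11, beside -0.01 for all genes. In macrophage-like cells 1 of 8 was called (Ptgs2, lower), where 5.94% of all genes were called higher and 7.91% lower. In microglia-like cells 0 of 7 were called, where 8.82% of all genes were called higher and 11.5% lower. In the oligodendrocyte lineage 1 of 3 was called (Ptgds, lower), where 11.4% of all genes were called higher and 7.32% lower. In myelinating cells both of the measured members were, Ptgds lower (background 10.8%) and Pla2g4a higher (background 10.6%). In tumour-lineage cells 0 of 4 were called, where 2.25% of all genes were called higher and 2.33% lower. With 2 to 8 members measured per class, nothing about the members as a group is read from these counts.

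**Figure D5:**
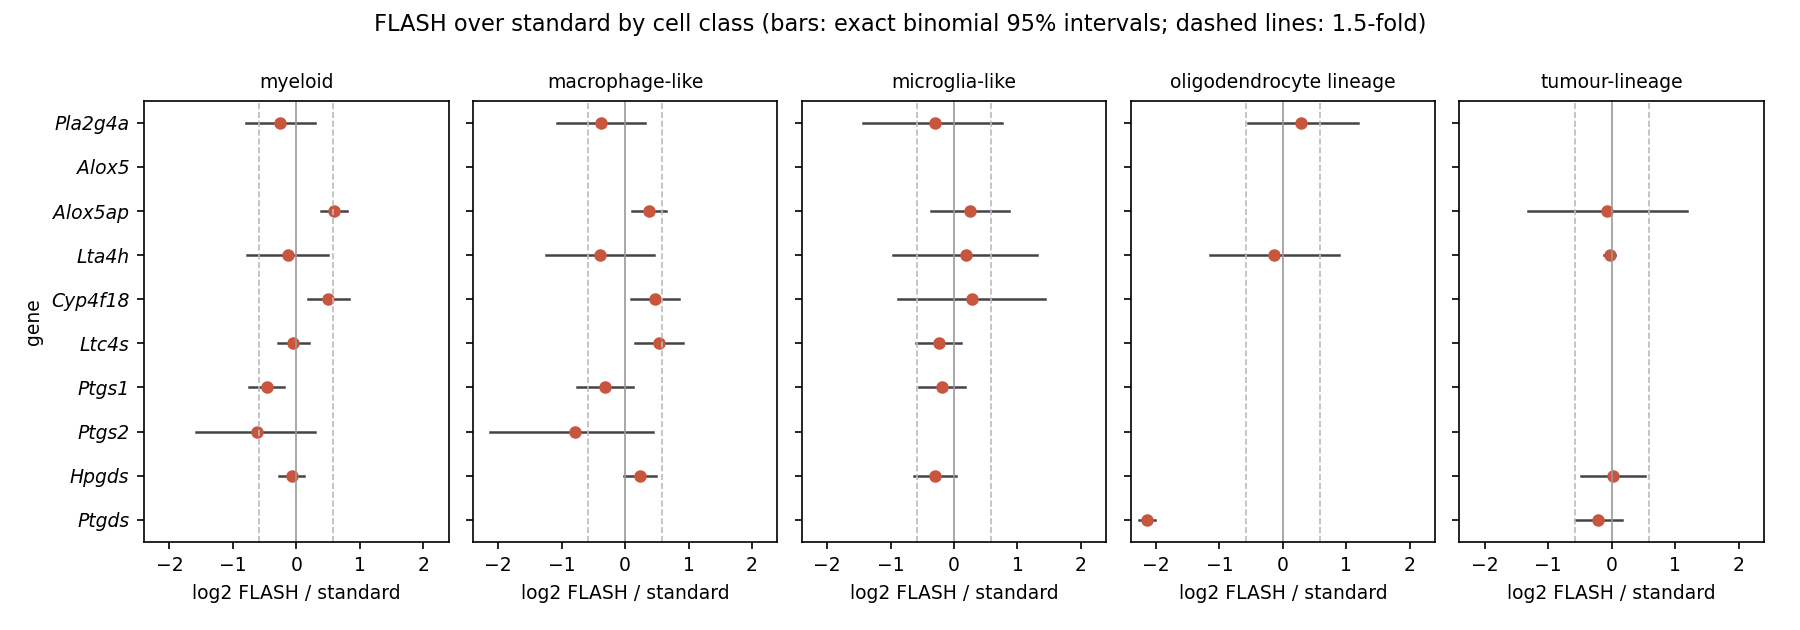
FLASH/standard log2 ratio (x axis) for each member with at least 20 UMIs over both libraries, in 5 classes, with exact binomial 95% intervals as bars and dashed lines at 1.5-fold. Ptgds in the oligodendrocyte lineage lies at -2.14, Alox5ap in myeloid cells at 0.59, and Lta4h in tumour-lineage cells at -0.03 with the narrowest interval.

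Of 85 further gene symbols listed for the pathway, 83 were in the files and 35 had enough UMIs in myeloid cells. A symbol that was not found can be another name of a listed gene. There 5 were called higher and 1 lower, where 5.03% of all genes were called higher and 7.16% lower, with a median log2 ratio of 0.11 (all genes -0.01). The higher ones included S100a8, an arachidonate-binding protein of neutrophils and monocytes (22.6 and 59.5 CPM, log2 ratio 1.39), Anxa1, an inhibitor of phospholipase A2 signalling (19.9 and 34.0 CPM, 0.77), Ltb4r1, the leukotriene B4 receptor (11.3 and 22.0 CPM, 0.95), and Fpr2, which binds lipoxins (3.22 and 9.49 CPM, 1.48). The prostaglandin exporter Abcc4 (7 and 14 UMIs, 0.85, -0.51 to 2.45) and, in the lower direction, Ptgfrn (21 and 14 UMIs, -0.67, -1.78 to 0.35) had intervals that include 0. Most of the Ltb4r1 UMIs of myeloid cells, 15 of 21 and 42 of 44, and of Fpr2, 5 of 6 and 13 of 19, lay in monocyte-like cells, which numbered 22 and 49. With the cluster mix held the same, the number of pathway genes called higher, members included, was 3 in place of 6. In macrophage-like cells alone S100a8 had a log2 ratio of -1.02 (20.3 and 9.82 CPM), and of 29 further genes 0 were called higher and 4 lower, S100a8 among them (all genes 5.94% and 7.91%). In microglia-like cells 16 were measured, 2 were called higher and 0 lower (all genes 8.82% and 11.5%). They were the fatty acid carrier Fabp5 (389 and 713 CPM, log2 ratio 0.88, 0.64 to 1.12) and Pla2g7, which inactivates platelet-activating factor (9 and 16 UMIs).

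Receptors also differed between the cell types. Ltb4r1 was at 146 and 214 CPM in monocyte-like, 453 and 335 CPM in neutrophil-like and 254 and 128 CPM in T cell-like cells, with no UMI in microglia-like cells. Cysltr1, the cysteinyl leukotriene receptor, was at 25.2 and 28.0 CPM in myeloid cells. Gpr17, a receptor of oligodendrocyte precursors once described as binding cysteinyl leukotrienes, was at 529 and 475 CPM in precursor-like cells. Ptger4, a prostaglandin E receptor, was at 16.1 and 20.98 CPM in myeloid cells. Tbxas1, the thromboxane synthase, was at 107 and 116 CPM in microglia-like and 67.0 and 81.6 CPM in macrophage-like cells. Hpgd, which inactivates prostaglandins, was found mainly in the Ms4a7 and Apoe macrophage cluster (39 and 46 UMIs, 96.9 and 97.6 CPM), and microglia-like cells held 3 UMIs in each library.

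In the oligodendrocyte lineage 25 further pathway genes were measured, and 4 were called higher and 2 lower (all genes 11.4% and 7.32%). The higher ones were Fabp7, a fatty acid carrier of precursors and astrocytes (783 and 1598 CPM, log2 ratio 1.03), Abcc1, the leukotriene C4 exporter (13.1 and 32.8 CPM, 1.29), Gpx8 (4.75 and 17.4 CPM, 1.75) and Ptger1, a prostaglandin E receptor (4.75 and 19.5 CPM, 1.90). Precursor-like cells were 57 of 120 standard and 99 of 161 FLASH cells of the lineage, and Fabp7 lay mostly in them. Within the lineage all but 1 of the Ptger1 UMIs lay in the Enpp6 cluster (2 and 5) and the Nfasc and Mag cluster (2 and 13). Mgst3 (93.9 and 57.4 CPM, -0.71) and Slco3a1 (54.7 and 35.9 CPM, -0.60) were called lower. In tumour-lineage cells 39 further genes were measured, and 1 was called higher (Alox8, 5 and 23 UMIs, 0.130 and 0.527 CPM) and 2 lower (Pla2g4b, 17 and 10 UMIs, and Abcc4, 15 and 10 UMIs), beside 2.25% and 2.33% of all genes. The abundant genes there stayed close, with log2 ratios of 0.10 for Fabp5 and 0.12 for Ptges3.

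Across 30 clusters of at least 30 cells, libraries summed, the genes whose levels ran most like a member's were named by Pearson's r of log2(CPM + 10) over clusters. The clusters share libraries and differ in depth, and no p is given. Alox5ap ran most like Syk (0.977), a kinase of immune receptors, and Cyp4f18 like Lst1 (0.982). Ltc4s ran like the complement genes C1qc (0.966) and C1qa (0.965), Ptgs1 like the microglial gene Tmem119 (0.951) and Hpgds like Igf1 (0.994). Ptgs2 ran like Lrg1 (0.951), Ptgds like the myelin gene Opalin (0.972), Pla2g4a like Trf (0.919) and Lta4h, less closely, like Cdc25a (0.791). The member pair Alox5ap and Cyp4f18 had an r of 0.971. Both genes were nearly absent from the tumour-lineage clusters among the 30, which raises such an r. In the neutrophil-like and MHC class II clusters Cyp4f18 did not follow Alox5ap in both libraries, as given above.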

How the data were processed

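Single cells of 2 medulloblastoma libraries, 1 per group, were measured by 10x 3' version 3 RNA sequencing after perfusion and enzymatic digestion. Per the file headers, Cell Ranger 6.1.2 made the deposited matrices, which hold raw UMI counts per gene and cell with no normalization. The build is mm10, per the submitters' processing notes. The libraries held 12867 and 14269 barcodes with 55532202 and 63178900 UMIs.

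Barcodes with under 500 detected genes or over 10% mitochondrial UMIs were removed, as were 573 (6.77%) and 860 (8.30%) barcodes with the highest scores in a comparison with simulated doublets, at an assumed 0.8% per 1000 cells. Counts were scaled to 10000 per cell. Leiden clustering (igraph 0.11.9, leidenalg 0.10.2, 15 neighbours, resolution 1) used 30 principal components of 2000 variable genes, without the 10 members. A cluster was named from a marker list whose mean log2 ratio over the other cells was at least 1.5, with at least 3 of its markers at a log2 ratio of 1 or more. The naming thresholds came from an earlier description of these data, and the closeness limit of 0.5 log2 between lists and the second split of leukocytes and glia were set after seeing the data. The members and gene lists were chosen with earlier results of these data known.

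UMIs were summed per class and library. Intervals are exact Poisson (CPM), Clopper-Pearson (shares) and conditional binomial (ratios). The ratios add a prior count of 0.5. A count of 0 allows at most 3 counts of the total. With 1 library per group no test across libraries could be made. Comparisons were limited to classes with at least 50 cells in each library, and values of smaller classes are given without calls. Shares were recomputed with cells thinned to 2000 UMIs. Named genes were all 10 members, and of every other list the genes with at least 20 UMIs, at most the 4 with the largest ratio per class plus the most abundant. Genes alike in pattern were ranked for members with at least 100 UMIs. Levels per cluster or per cell were added where a member's UMIs lay in few clusters. Alternatives were other limits on cells, doublets kept, thinning, median-ratio scaling, a fixed cluster mix, clustering each library by itself, a marker gate, leaving out the richest cells, and other count minimums. The ratio and interval code was tested on simulated data.

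Coordinates are from GENCODE M21, in which 30934 of 31055 feature IDs were found, and promoter windows from RefSeq (GRCm38.p6), which held 9 of the 10 members. The software was python 3.11.15, numpy 2.4.6, scipy 1.17.1 and matplotlib 3.10.9.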

Additional observations from a re-analysis of the deposited data

How the results depend on the processing

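With 1 library per group, no library could be left out, and the alternatives varied the cells, depth, scaling and classes. No paired analysis was possible because each group has 1 library. Of 316 recomputed log2 ratios, 294 stayed within their interval, 20 moved outside it and 2 reversed, and of 180 levels 168 stayed and 12 moved. Counts and shares moved more: 29 of 62 counts of called genes or background shares changed by over 1.5 times, and 19 of 20 shares of cells with a UMI moved outside their interval when the thinning depth was 1000 or 4000 UMIs. Such a share rises with the depth that cells are thinned to, so its moves were largely set by the procedure and are no check of its stability. In myeloid cells the Alox5ap ratio of 0.59 became 0.90 with cells thinned to 2000 UMIs and 0.97 with each library clustered by itself. In that clustering only the FLASH library had a monocyte-like cluster, so the myeloid cells compared were not alike. With clusters in the same mix the Alox5ap ratio was 0.32 and no longer reached 1.5-fold. The Ptgs1 ratio of -0.47 became -0.96 when thinned, past 1.5-fold, and -0.13 in the same mix. Thinning changed the mix of cells as well as their depth. The Pla2g4a ratio of 0.79 in myelinating oligodendrocyte-like cells reversed to -0.44 when thinned and to -0.22 without the 5 cells with most UMIs. The Ptgds ratio there ran from -1.84 with a marker gate to -1.39 when thinned. Pathway genes called higher in myeloid cells, 6 with members included, were 3 with doublet calls kept, 3 in the same mix and 17 with no count minimum. Those called lower, 2, were 4 with doublet calls kept, 4 at a limit of 5% mitochondrial UMIs and 8 with no count minimum. With no minimum 16.7% of all 15083 genes were called higher and 18.4% lower in myeloid cells, beside 5.03% and 7.16% at 20 UMIs. At a minimum of 100 UMIs, 1.66% of 4509 genes were called higher and 1.64% lower there. Apart from the shares of cells with a UMI, the cause of these shifts was not tested. No scaling alternative moved the median of all genes by over 0.1 log2. Leaving out the low-depth clusters, chosen after seeing the data, left 28 of 28 recomputed values within their interval. Depth limits the small classes: in the 22 standard monocyte-like cells a count of 0 allows up to 29.2 CPM.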
